A study of Mus musculus with 14 samples.

Results

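The genes described here are the D cyclins Ccnd1, Ccnd2 and Ccnd3, the E cyclins Ccne1 and Ccne2, and their partner kinases Cdk2, Cdk4 and Cdk6. They were taken by symbol from a table of 46517 mouse genes, and all 8 were found. The study measured RNA in 14 lung tumours of mice by poly(A)-selected RNA-seq. All mice were Rb1 fl/fl and Trp53 fl/fl, so neither group is wild type for these genes, and Cre recombinase was delivered by an adenovirus with the Cgrp promoter, known to drive expression in neuroendocrine cells. RPM mice (n = 11 tumours) also carried LSL-Myc T58A with an IRES-Luc reporter, a Myc allele switched on by Cre. It was present in 2 copies in 9 tumours (LSL/LSL) and 1 copy in 2 tumours (LSL/+, replicates 2 and 4). RPR2 mice (n = 3 tumours) were also Rbl2 fl/fl, the gene of the pocket protein p130. All tumours are labelled small cell lung cancer and untreated, and they were cut out of the lung by eye, so each library holds tumour and surrounding cells. No label gives the ages of the mice.

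D cyclins are made in response to growth signals and bind CDK4 or CDK6, and these kinases phosphorylate the retinoblastoma protein RB and its relatives p107 and p130. E cyclins bind CDK2, complete that phosphorylation and help start DNA replication. Phosphorylated pocket proteins release E2F factors, which switch on S phase genes, the E cyclins among them. Small cell lung cancer is known for the loss of RB, the best known substrate of CDK4 and CDK6.

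Promoter sequences are shown because both the factor whose allele sets RPM apart and the E2F factors downstream of these kinases bind DNA at known motifs, the E-box in the case of Myc with its partner Max. RefSeq promoter windows of 300 bases (GRCm38.p6, 250 bases before to 50 after the annotated start) were at hand for 5 of the 8 genes, namely Ccnd3 with 2 windows, Ccne1, Cdk2, Cdk4 and Cdk6. Ccnd1, Ccnd2 and Ccne2 are named only. The E-box CACGTG, which reads the same on both strands, occurred 4 times in the Cdk4 window and 1 time in the Cdk6 window. The E2F motif TTTCCCGC, searched on both strands, occurred 1 time, in the Cdk2 window. A second E2F motif, TTTGGCGC, and the AP-1 motif TGACTCA, also searched on both strands, occurred in none of the 6 windows. No 2 matches overlapped. The 250 bases before the start are shown for the 3 genes with a match, with the matches in capitals (Cdk4, chr10:127063285-127063534, plus strand; Cdk6, chr5:3343643-3343892, plus strand; Cdk2, chr10:128705052-128705301, minus strand, where the capitals are the E2F motif as its reverse complement).
Cdk4: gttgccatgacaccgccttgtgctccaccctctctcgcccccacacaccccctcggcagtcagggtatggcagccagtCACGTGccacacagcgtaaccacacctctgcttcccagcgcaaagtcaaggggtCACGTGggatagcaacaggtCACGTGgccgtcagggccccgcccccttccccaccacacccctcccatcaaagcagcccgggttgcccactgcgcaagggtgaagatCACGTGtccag
Cdk6: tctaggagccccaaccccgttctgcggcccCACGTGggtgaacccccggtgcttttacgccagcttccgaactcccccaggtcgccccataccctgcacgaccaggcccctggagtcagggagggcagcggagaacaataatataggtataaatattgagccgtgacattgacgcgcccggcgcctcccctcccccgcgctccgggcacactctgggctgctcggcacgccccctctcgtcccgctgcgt
Cdk2: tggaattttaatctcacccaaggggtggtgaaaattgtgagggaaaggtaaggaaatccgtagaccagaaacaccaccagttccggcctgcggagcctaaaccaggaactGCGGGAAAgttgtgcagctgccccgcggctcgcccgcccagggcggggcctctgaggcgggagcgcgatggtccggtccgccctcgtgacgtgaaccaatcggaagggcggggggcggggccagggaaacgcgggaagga

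Over all 32851 RefSeq windows of this length, 7.15% held at least 1 E-box and 8 windows of 6 genes, or 0.0244%, held 4 or more. The shares were 1.07% for TTTCCCGC, 0.514% for TTTGGCGC and 5.20% for TGACTCA. The E-boxes of Cdk4 began 172, 118, 98 and 11 bases before the start, that of Cdk6 began 220 bases before it, and the E2F match of Cdk2 began 140 bases before it. The RefSeq start used for Cdk6 lies inside the GENCODE gene, downstream of its first annotated base. A match of letters is a description of the sequence and does not show binding.

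**Figure D1:**
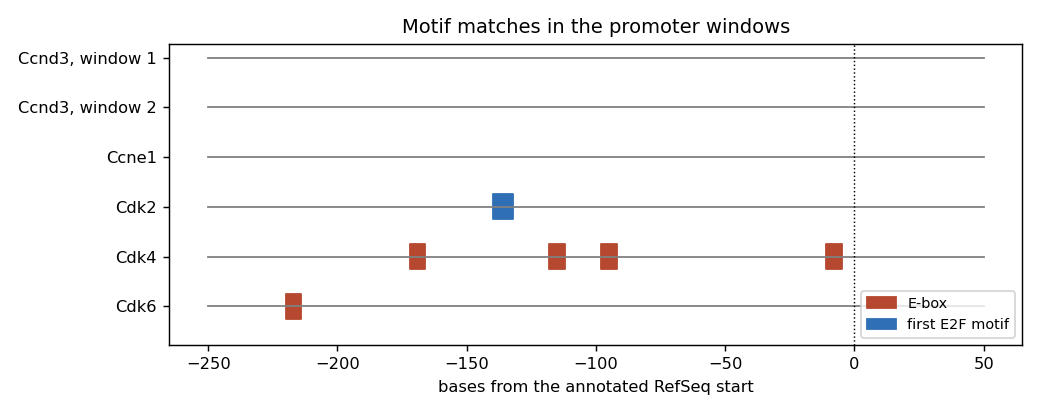
Motif matches in the 6 promoter windows, with the distance in bases from the annotated RefSeq start on the horizontal axis and the windows as rows. Bars mark 4 E-boxes in Cdk4, 1 in Cdk6 and 1 E2F motif in Cdk2, and the windows of Ccnd3 and Ccne1 hold no match.

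Expression is given in FPKM as deposited by the authors, which scales reads by transcript length and by the depth of the library. Depth, estimated from the steps between low values, was 17.3 to 20.0 M reads in RPM and 21.3 to 22.8 M reads in RPR2. In the shallowest library 0.0867 FPKM would be 3 reads for a 2 kb transcript, a floor that covers counting error only. Myc checked the labels: it lay between 48.4 and 384 FPKM in RPM and at 4.68, 6.83 and 13.6 FPKM in RPR2. Gene totals cannot check the deletions, since exons outside the loxP sites still count. RPR2 replicate 3 went against its tissue label. Its 10 neuroendocrine markers summed to 18.9 FPKM, with none at 0, against 224 to 1312 FPKM in RPM and 3391 and 4733 FPKM in the other RPR2 tumours. Its 7 alveolar type 2 markers summed to 50831 FPKM, against 147 to 1407 FPKM in RPM and 1843 and 2362 FPKM in the other RPR2 tumours, and it correlated with those at r = 0.754 and 0.777 across genes. The differences of the 8 genes and the counts over lists are therefore given with and without it. In bulk tumours fewer cells of a type and less RNA per cell cannot be told apart. The sample descriptions of the RPR2 libraries carry another leading number than those of RPM, whose meaning is not stated and which cannot be told apart from the model. Nothing states that the tumours came from separate mice, and RPM replicates 6 and 7, and 10 and 11, share a number in their titles, so p-values measure only the spread between these samples.

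Cdk4 was by far the most abundant of the 8 genes in both models, and Cdk6 and Ccnd2 were the least abundant. In RPM the order by mean FPKM was Cdk4, Ccne1, Ccne2, Ccnd3, Cdk2, Ccnd1, Cdk6 and Ccnd2. Only Cdk4 stood clear of its neighbour there, and the ranges of every later pair of neighbours over the 11 tumours overlapped. In RPR2 the order was Cdk4, Ccne2, Ccnd3, Cdk2, Ccnd1, Ccne1, Ccnd2 and Cdk6, and the 4 genes from Ccne2 to Ccnd1 overlapped with their neighbours, as Ccnd1 did with Ccne1. Among the 15719 genes tested, mean Cdk4 lay at the 98.9th percentile in RPM and the 98.6th in RPR2, while mean Cdk6 lay at the 37.4th and the 7.98th.

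**Figure D2:**
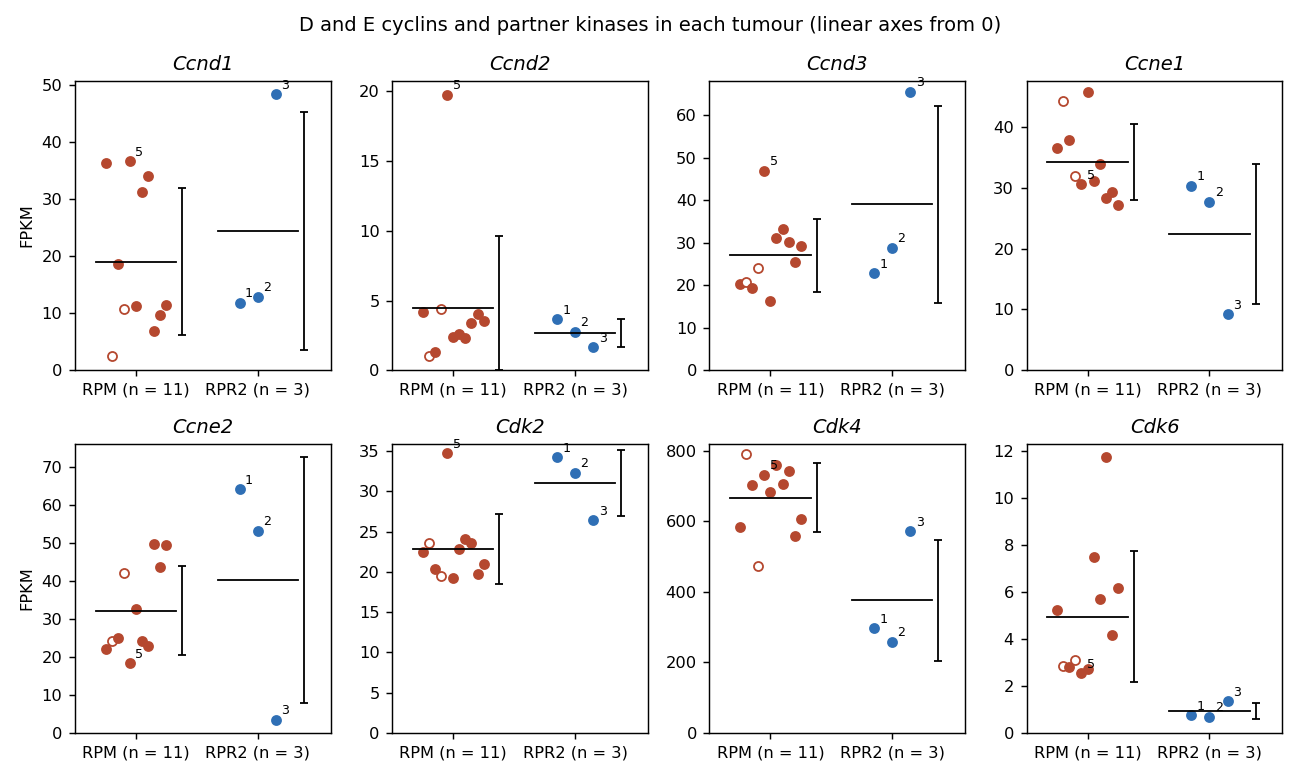
FPKM of each gene in each tumour on linear axes from 0, with RPM on the left (filled circles LSL/LSL, open circles LSL/+) and RPR2 on the right, numbered by replicate (RPM replicate 5 is numbered too). Horizontal lines are means and bars are SD, the lower end stopping at 0, and Cdk6 is the only gene whose 11 RPM tumours all lie above all 3 RPR2 tumours.

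Of the 8 genes, 3 rose in RPM relative to RPR2 (Ccne1, Cdk4 and Cdk6), 1 fell (Cdk2) and 4 did not pass the test. Values were tested as log2(FPKM + 1) with limma, where a Benjamini-Hochberg adjusted p under 0.05 over all genes counts as a call, and the background is high: 41.2% of all genes tested were called, 18.4% higher and 22.8% lower. With 4 of 8, the share called here is near that background. The median difference of the 8 genes was 0.30, against -0.06 for all genes tested. Over all genes 2897 were higher and 3586 lower, and TPM scaling gave 1900 higher and 3839 lower with a median of -0.24, while Cdk4, Cdk6 and Cdk2 kept their directions and calls (0.70, 1.58 and -0.63; limma, adjusted p = 0.00828, 0.00944 and 0.0455). All 8 passed the filter of at least 1 FPKM in at least 3 libraries, but Cdk6 passed through RPM, since only 1 RPR2 tumour reached 1 FPKM. Without RPR2 replicate 3, 44.8% of all genes were called, 16.2% higher and 28.5% lower, and 2 of the 8 rose (Cdk4 and Cdk6) and 2 fell (Ccne2 and Cdk2), with a median of 0.14 against -0.22 for all genes. No other scaling was tried without that tumour. Markers of other cells differed between the models as well. With all tumours, 7 of 7 alveolar type 2 markers fell in RPM, 6 of 7 proliferation markers rose and none fell, 4 of 7 fibroblast markers rose and 1 fell, 2 of 7 endothelial markers fell, and of 10 neuroendocrine markers 1 rose and 1 fell. These counts moved when RPR2 replicate 3 was left out: 4 of 7 alveolar type 2 markers then fell, 4 of 7 proliferation markers rose, 3 of 7 fibroblast markers rose and 1 fell, and 6 of 10 neuroendocrine markers fell while none rose. The endothelial count stayed at 2. Sftpa1, Slc34a2 and Lamp3, alveolar type 2 markers, were each at 0 in 3 libraries. The endothelial sums were 28.03 to 81.3 FPKM in RPM and 309, 389 and 57.2 FPKM in RPR2. Most of the sums of RPR2 replicates 1 and 2 was Vwf. This gene alone was 238, 329 and 28.3 FPKM in RPR2, against 1.02 to 14.3 FPKM in RPM. Vwf and Tek were the only endothelial markers called. The part of all these cell types in the results was not tested.

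**Figure D3:**
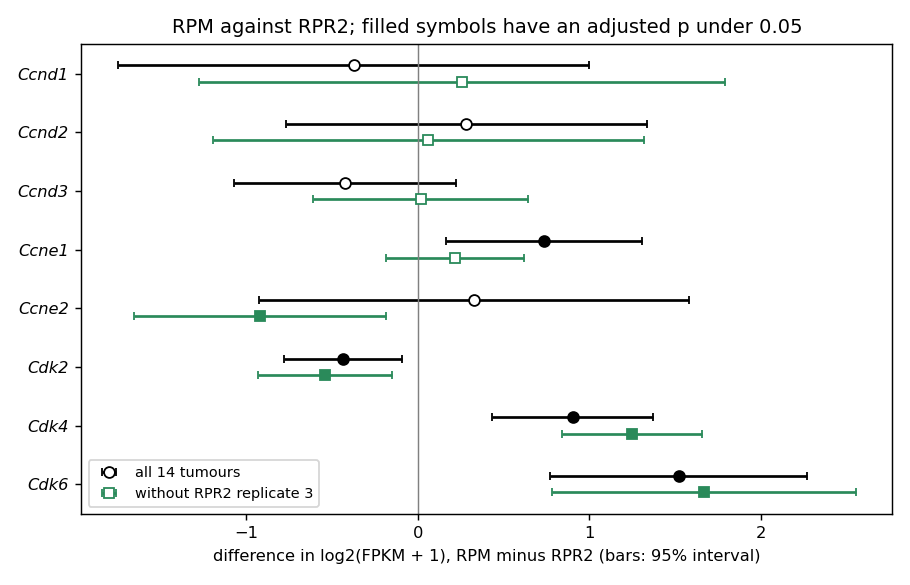
Difference in log2(FPKM + 1) between RPM and RPR2 for each gene with its 95% interval from limma, for all 14 tumours (circles) and without RPR2 replicate 3 (squares). Filled symbols have an adjusted p under 0.05: Cdk4 and Cdk6 are filled and positive in both fits, while Ccne2 changes sign, from 0.33 with all tumours to -0.92 without that tumour.

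Cdk6, which encodes one of the 2 kinases driven by D cyclins (ENSMUSG00000040274, chromosome 5, 3341485 to 3531008, plus strand, GRCm38), was low in RPR2 and several times higher in RPM. Its lowest, median and highest FPKM in RPM were 2.55, 4.18 and 11.8, against 0.76, 0.69 and 1.34 in RPR2 replicates 1, 2 and 3. The 2 groups did not overlap, which was so for 24.7% of all genes tested and, in this direction, for 11.1%. It averaged 4.95 ± 2.80 FPKM in RPM (SD, n = 11) and 0.930 ± 0.357 FPKM in RPR2 (SD, n = 3), a ratio of means of 5.33. On the log2(FPKM + 1) scale, which understates the change of a low gene, the difference was 1.52 ± 0.351 (SE; limma, Benjamini-Hochberg adjusted p = 0.00306), and 1.67 ± 0.413 without RPR2 replicate 3 (adjusted p = 0.00483, same test). With a pseudocount of 0.01 in place of 1 the difference was 2.29. RPM replicate 9 was the highest tumour and RPM replicate 5 the lowest.

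Cdk4 encodes the other kinase driven by D cyclins (ENSMUSG00000006728, chromosome 10, 127063534 to 127067920, plus strand), the gene whose window holds 4 E-boxes. In RPM its lowest, median and highest FPKM were 474, 704 and 791, against 297, 259 and 572 in RPR2 replicates 1, 2 and 3. All 11 RPM tumours lay above RPR2 replicates 1 and 2, and 9 of 11 lay above RPR2 replicate 3. It averaged 668 ± 98.2 FPKM in RPM (SD, n = 11) and 376 ± 171 FPKM in RPR2 (SD, n = 3), a ratio of means of 1.77. The difference was 0.90 ± 0.220 log2 units (SE; limma, Benjamini-Hochberg adjusted p = 0.00446) and 1.25 ± 0.190 when RPR2 replicate 3 was left out (adjusted p = 0.000139, same test). The FPKM of all genes summed to 523529 and 545461 in RPR2 replicates 1 and 2, below every RPM tumour (599119 to 939971). The value of 1.25 therefore depends on scaling. With all tumours the difference was 0.70 with TPM scaling, which makes the sums equal. It was 0.51 after quantile normalization (adjusted p = 0.0244 by limma with Benjamini-Hochberg adjustment), and it did not pass by the exact Wilcoxon test (Benjamini-Hochberg adjusted p = 0.0615). Part of the Cdk4 gene, 641 bases of transcript, is shared with an annotated transcript of Tspan31 on the opposite strand. The strand setting of the authors' counting is not given, so reads from these bases could not be told apart. Tspan31 itself lay between 38.4 and 65.7 FPKM in RPM and at 51.3, 45.4 and 81.6 FPKM in RPR2.

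Within each library Cdk4 made up nearly all of the summed Cdk4 and Cdk6 FPKM, which are per length and so can be set beside each other. The share of Cdk6 was 0.347% to 1.56% in RPM (median 0.742%) and 0.255%, 0.266% and 0.234% in RPR2 replicates 1, 2 and 3. The RPM shares were above all RPR2 shares in 11 of 11 tumours. This share does not depend on scaling between libraries, and RPR2 replicate 3 did not stand apart in it. Cdk4 exceeded Cdk6 by 63.2 to 287 times in RPM and by 375 to 427 times in RPR2. The ratio of Cdk4 to Cdk2 was 21.1 to 35.4 in RPM, against 8.66, 8.02 and 21.7 in RPR2 replicates 1, 2 and 3. In this ratio RPR2 replicate 3 did stand apart from the other RPR2 tumours, and 10 of 11 RPM tumours lay above it.

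None of the D cyclins differed between the models past the threshold, and the interval of each included 0. Ccnd1 encodes cyclin D1, a target of many growth factor pathways (ENSMUSG00000070348, chromosome 7, 144929931 to 144939925, minus strand). The RPM tumours had a lowest, median and highest FPKM of 2.56, 11.4 and 36.6, against 11.8, 12.9 and 48.4 in RPR2 replicates 1, 2 and 3. RPR2 replicate 3 was the highest of all tumours, and the other 2 RPR2 tumours lay inside the RPM range. The difference was -0.37 log2 units with a 95% interval of -1.75 to 1.0 (limma, Benjamini-Hochberg adjusted p = 0.676), and 0.26 without RPR2 replicate 3 (interval -1.28 to 1.79, adjusted p = 0.791).

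Ccnd2, which encodes cyclin D2 (ENSMUSG00000000184, chromosome 6, 127125162 to 127152193, minus strand), was the lowest D cyclin on average in both models. Its lowest, median and highest FPKM in RPM were 1.05, 3.36 and 19.8, against 3.64, 2.77 and 1.64 in RPR2 replicates 1, 2 and 3. Only RPM replicate 5 exceeded 4.38 FPKM, and the groups overlapped. The difference was 0.28 log2 units with an interval of -0.77 to 1.34 (limma, Benjamini-Hochberg adjusted p = 0.680), and 0.06 without RPR2 replicate 3 (interval -1.19 to 1.32, adjusted p = 0.941).

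Ccnd3 encodes cyclin D3 (ENSMUSG00000034165, chromosome 17, 47505051 to 47599691, plus strand). Over the RPM tumours the lowest, median and highest FPKM were 16.3, 25.4 and 47.0, against 22.8, 28.8 and 65.6 in RPR2 replicates 1, 2 and 3. As for Ccnd1, RPR2 replicate 3 was the highest of all tumours. The difference was -0.42 log2 units with an interval of -1.07 to 0.22 (limma, Benjamini-Hochberg adjusted p = 0.282), and 0.02 without that tumour (interval -0.61 to 0.64, adjusted p = 0.971). Its processed pseudogene Ccnd3-ps, 96.3% identical over 881 bases, was at most 0.22 FPKM in RPM and 0.05 in RPR2. Transcripts of Ccnd1 and Ccnd3 share 818 and 361 bases with LTO1 and Bysl on the opposite strand. For Bysl the FPKM was 9.93 to 16.7 in RPM, against 5.90, 4.88 and 4.51 in RPR2. For LTO1 it was 7.13 to 12.2 in RPM, against 13.7, 14.7 and 10.95 in RPR2.

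Ccnd3 was the leading D cyclin in every RPM tumour but replicates 1, 7 and 8, where Ccnd1 was higher. Only in RPM replicate 1 was that lead of Ccnd1 clear, with 59.6% of the D cyclin sum against 33.6% for Ccnd3. In RPM replicates 7 and 8 Ccnd1 and Ccnd3 were nearly level (31.24 against 31.23 FPKM and 34.03 against 33.31 FPKM). The share of Ccnd1 in the D cyclin sum ran from 10.5% in RPM replicate 2 to 59.6% in RPM replicate 1, with a median of 35.4%, against 30.9%, 28.9% and 41.8% in RPR2 replicates 1, 2 and 3. The share of Ccnd3 ran from 33.6% to 85.2% in RPM with a median of 54.5%, and was 59.6%, 64.9% and 56.7% in RPR2. Ccnd3 made up more than 50% of the sum in 6 of 11 RPM tumours and in all 3 RPR2 tumours. Ccnd2 reached 19.1% in RPM replicate 5 and was between 3.27% and 11.2% in the other RPM tumours, against 9.51%, 6.23% and 1.42% in RPR2. The D cyclin sum was 24.4 to 103 FPKM in RPM, with a median of 40.5, and 38.3, 44.5 and 116 FPKM in RPR2. The highest sum in each group was in RPM replicate 5 and RPR2 replicate 3, the tumours with the lowest summed neuroendocrine markers of their group. Whether other cells take part in these sums was not tested.

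**Figure D4:**
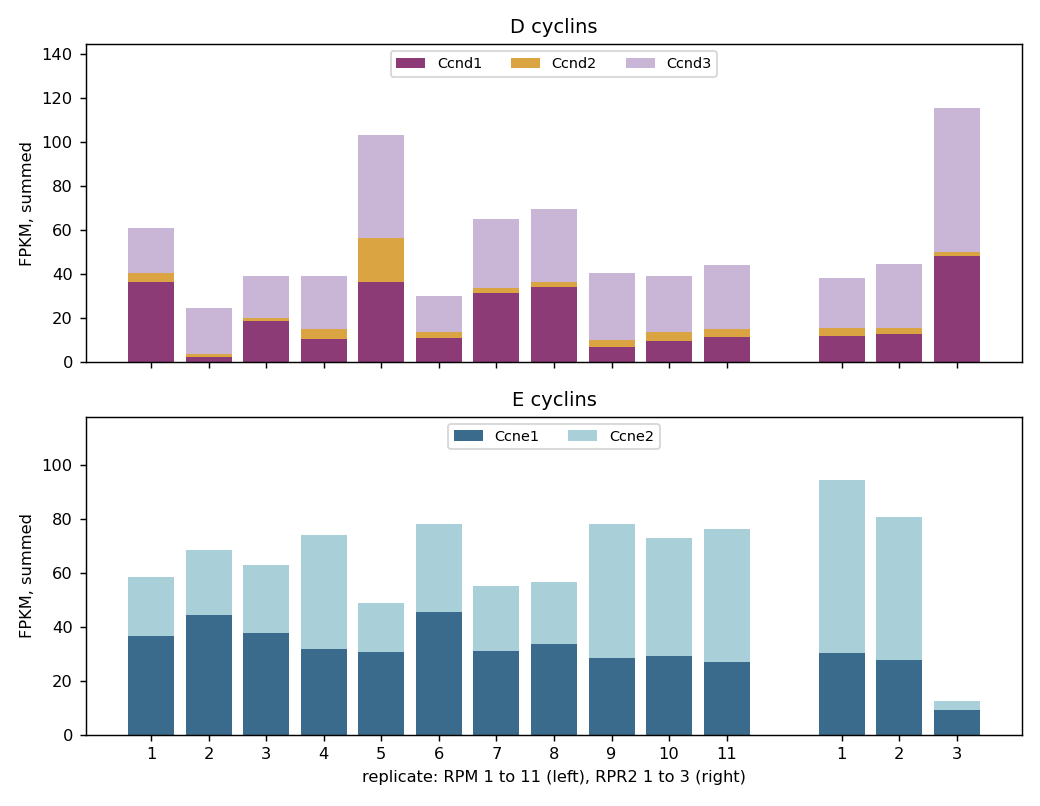
Stacked FPKM of the D cyclins (top) and E cyclins (bottom) in each tumour, with RPM replicates 1 to 11 on the left and RPR2 replicates 1 to 3 on the right, both axes linear from 0. RPM replicate 5 and RPR2 replicate 3 have the tallest D cyclin bars (103 and 116 FPKM), and RPR2 replicate 3 has the shortest E cyclin bar (12.6 FPKM).

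The 2 E cyclins behaved differently from each other, and both turned on RPR2 replicate 3. Ccne1 encodes cyclin E1, an activator of CDK2 (ENSMUSG00000002068, chromosome 7, 38097984 to 38107534, minus strand). Its lowest, median and highest FPKM in RPM were 27.2, 32.0 and 45.7, against 30.3, 27.7 and 9.16 in RPR2 replicates 1, 2 and 3. RPR2 replicates 1 and 2 lay inside the RPM range, and replicate 3 lay far below it. Ccne1 rose by 0.73 ± 0.268 log2 units (SE; limma, Benjamini-Hochberg adjusted p = 0.0389), and without RPR2 replicate 3 the difference was 0.21 ± 0.187 and not called (adjusted p = 0.369, same test). The call was also lost without RPM replicate 1, 2, 3, 6 or 8 (limma with Benjamini-Hochberg adjustment, adjusted p = 0.0518 to 0.0552). TPM scaling (0.231), array weights (0.0963) and 4 further alternatives ended it too.

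Ccne2 encodes cyclin E2, the other activator of CDK2 (ENSMUSG00000028212, chromosome 4, 11191351 to 11204779, plus strand). In RPM the lowest, median and highest values were, in FPKM, 18.3, 25.0 and 49.8, against 64.1, 53.2 and 3.43 in RPR2 replicates 1, 2 and 3. All 11 RPM tumours lay below RPR2 replicates 1 and 2 and above RPR2 replicate 3. With all tumours the difference was 0.33 log2 units with an interval of -0.93 to 1.58 (limma, Benjamini-Hochberg adjusted p = 0.690). Without RPR2 replicate 3 Ccne2 fell by 0.92 ± 0.343 (SE; adjusted p = 0.0408, same test), and array weights, which let libraries count less the more they scatter, gave -0.72 (adjusted p = 0.0154, same test). Array weights can also make RPR2 replicate 3 count less, so these results are not independent, and this setting called 10867 of 15719 genes tested. Transcripts of Ccne2 share 474 bases with Ints8 on the opposite strand, whose FPKM was between 15.4 and 35.0 in RPM, against 18.7, 21.4 and 48.6 in RPR2 replicates 1, 2 and 3.

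Within a library Ccne1 exceeded Ccne2 in 7 of 11 RPM tumours, and its share of the E cyclin sum was 35.5% to 64.6% with a median of 58.4%. In RPR2 the share was 32.1%, 34.2% and 72.8% in replicates 1, 2 and 3, so the 2 tumours with neuroendocrine markers had more Ccne2 and the third more Ccne1. The E cyclin sum was 48.9 to 78.3 FPKM in RPM with a median of 68.5, and 94.5, 80.9 and 12.6 FPKM in RPR2. Both RPR2 tumours with neuroendocrine markers thus had a higher sum than any RPM tumour. Beside this, the 7 proliferation markers summed to 515 to 683 FPKM in RPM and to 390, 327 and 135 FPKM in RPR2, and 6 of them rose while none fell in RPM (4 and none without RPR2 replicate 3). Of all genes tested 18.4% were higher, and 16.2% without that tumour. The low E cyclins of RPR2 replicate 3 went with the lowest proliferation markers of the series, and the part of these cells in the result was not tested.

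Cdk2, the kinase partner of the E cyclins (ENSMUSG00000025358, chromosome 10, 128697939 to 128705031, minus strand), was slightly lower in RPM. Its lowest, median and highest FPKM in RPM were 19.3, 22.5 and 34.8, against 34.3, 32.3 and 26.4 in RPR2 replicates 1, 2 and 3. All RPM tumours but replicate 5 lay below all 3 RPR2 tumours. It averaged 22.8 ± 4.35 FPKM in RPM (SD, n = 11) and 31.0 ± 4.09 FPKM in RPR2 (SD, n = 3). The fall of 0.44 ± 0.162 log2 units was called with limma (SE; Benjamini-Hochberg adjusted p = 0.0430), and also without RPR2 replicate 3 (-0.54 ± 0.182, adjusted p = 0.0256). The call was lost without RPR2 replicate 1 or 2 (limma with Benjamini-Hochberg adjustment, adjusted p = 0.168 and 0.139) and without any 1 of RPM replicates 1, 3, 4 and 6 to 11 (0.0510 to 0.0621). Median-of-ratios scaling and quantile normalization, which moved the median of all genes to 0.05 and 0.08, ended it as well (adjusted p = 0.147 and 0.0976, same test). So did the shared title number as a random effect (-0.41, adjusted p = 0.0754, same test), the exact Wilcoxon test (Benjamini-Hochberg adjusted p = 0.0963) and keeping only LSL/LSL tumours (adjusted p = 0.0648 by limma).

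The 8 genes differed in how much they varied among the 11 RPM tumours. On the log2(FPKM + 1) scale Ccnd1 had an SD of 1.09 and Ccnd2 of 0.88, more than 95.9% and 92.3% of all genes tested. Cdk6 had an SD of 0.60 (80.2nd percentile), Ccne2 of 0.50 (70.9th) and Ccnd3 of 0.42 (57.9th). Ccne1, Cdk2 and Cdk4 varied little, with SDs of 0.24, 0.23 and 0.23 at the 19.4th, 16.3rd and 15.2nd percentiles. The highest Ccnd1 value was 14.3 times the lowest and the highest Ccnd2 value 18.8 times the lowest, against 1.67 times for Cdk4. Without RPM replicate 5, Ccnd2 ran only from 1.05 to 4.38 FPKM, while Ccnd1 still ran from 2.56 to 36.3 FPKM. Tumours with a shared title number could differ as well: RPM replicates 6 and 7 had 11.2 and 31.2 FPKM of Ccnd1 and 2.72 and 7.47 of Cdk6, while no gene differed by more than 1.48 times between RPM replicates 10 and 11.

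RPM replicate 5 held the highest value of Ccnd1, Ccnd2, Ccnd3 and Cdk2 and the lowest of Ccne2 and Cdk6 in its group. Its Ccnd2 was 4.51 times that of the next RPM tumour. Its neuroendocrine markers summed to 224 FPKM, the lowest in RPM, and its endothelial markers to 81.3 FPKM, the highest there, against at most 72.9 in the other RPM tumours, and the part of either in these values was not tested. Its fibroblast markers summed to 264 FPKM, inside the range of 139 to 408 FPKM in RPM.

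Across the 11 RPM tumours, 28 pairs of these genes were compared by correlation with 100000 permutations, and none passed the Benjamini-Hochberg adjustment over the 28, while 4 pairs had an unadjusted permutation p under 0.05 by Pearson's r and 4 by Spearman's rho. The strongest by Pearson's r was Ccnd3 with Cdk2 (r = 0.768, permutation p = 0.00563, adjusted p = 0.158; rho = 0.745, permutation p = 0.0113, adjusted p = 0.159). Without the 2 tumours farthest from the median of Ccnd3 its r was 0.357. Leaving them out also narrows the range of Ccnd3, so this does not show that the relation rests on them. The next was Ccnd3 with Ccne1 (r = -0.711, permutation p = 0.0134, adjusted p = 0.187; rho = -0.664, permutation p = 0.0300, adjusted p = 0.210), which had r = -0.692 without the 2 farthest tumours. By rank the strongest was Ccnd1 with Ccne2 (rho = -0.755, permutation p = 0.0102, adjusted p = 0.159; r = -0.557, permutation p = 0.0758, adjusted p = 0.303). Its r was -0.924 without the 2 tumours farthest from the median of Ccnd1. The tumours that share title numbers may not be independent.

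The genes whose profiles over the 11 RPM tumours were most like these were looked up among 9043 named genes with a mean of at least 5 FPKM in RPM, by Pearson's r, as a description with no test. The closest to Ccnd1 were Serbp1, Xylt2 and Vtn (r = 0.947, 0.936 and 0.934), and those to Ccnd3 were Ero1lb, Dmpk and Rad9a (0.934, 0.927 and 0.920). For Ccnd2 they were Slc4a2, Nes and Rell1 (0.963, 0.940 and 0.938) and for Cdk2 Gper1, Lamb2 and Ddr2 (0.943, 0.934 and 0.931). Without RPM replicate 5, the highest for both genes, r was 0.788 to 0.901 for the first set and 0.730 to 0.754 for the second. Leaving out the highest tumour also narrows the range. Ccne1 was closest to Pym1, Selenoh and Bok (0.900, 0.898 and 0.887), and Ccne2 to Rcan3, Cacna2d1 and Slc38a11 (0.963, 0.946 and 0.945). Cdk4 was closest to the ribosomal protein gene Rps3a1, Cuta and the splicing factor gene Srsf2 (0.888, 0.884 and 0.866), and Cdk6 to Gne, Exoc6 and Rfk (0.925, 0.899 and 0.897). Without RPM replicate 9, the highest for Cdk6, r was 0.810 to 0.859 for the Cdk6 set.

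None of the 8 genes differed past the threshold between LSL/LSL tumours (n = 9) and LSL/+ tumours (n = 2), a comparison that asks whether the number of Myc alleles matters. Over all genes tested 0.00673% were called, which is 1 of 14862 (limma with Benjamini-Hochberg adjustment), while 2569 had an unadjusted p under 0.05. The groups overlapped for all 8 genes, and they did not overlap for 9.36% of all genes. Ccnd1 had the largest difference of the 8, with 6.92, 18.6 and 36.6 FPKM as lowest, median and highest in LSL/LSL, against 2.56 and 10.7 FPKM in LSL/+ replicates 2 and 4. LSL/+ replicate 2 was the lowest RPM tumour, and 7 of 9 LSL/LSL tumours lay above both LSL/+ tumours. The difference was 1.59 ± 0.638 log2 units (SE), with an interval of 0.20 to 2.98 and an adjusted p of 0.267 by limma with Benjamini-Hochberg adjustment. It was 0.74 without LSL/+ replicate 2 and 2.45 without LSL/+ replicate 4, each leaving 1 LSL/+ tumour that is assumed to vary like the others. Cdk6 lay between 2.55 and 11.8 FPKM in LSL/LSL and at 2.83 and 3.09 FPKM in LSL/+ (difference 0.57, interval -0.34 to 1.48, adjusted p = 0.453, same test). Cdk4 lay between 559 and 760 FPKM in LSL/LSL, with LSL/+ replicates 2 and 4 above and below that range at 791 and 474 FPKM. The FPKM of all genes summed to 939971 in LSL/+ replicate 2, against 599119 to 829049 in LSL/LSL, so these places depend on scaling. The Cdk4 difference was 0.13, against 0.40 with TPM scaling, which makes the sums equal, and -0.072 with median-of-ratios scaling. The other 5 genes had differences of -0.19 to 0.48.

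The genes that act on these complexes were described by lists chosen for their roles, with counts only. Of the 7 CDK inhibitors tested, 3 fell in RPM and none rose, with a list median of -1.32 against -0.06 for all genes. The share called, 3 of 7, is near the 41.2% called over all genes, of which 22.8% were lower. Cdkn2b, which encodes the CDK4 and CDK6 inhibitor p15, was 0.38 to 3.40 FPKM in RPM (median 1.47) and 15.5, 15.2 and 25.5 FPKM in RPR2 (difference -2.98 ± 0.313, SE; limma, Benjamini-Hochberg adjusted p = 4.55e-06). Its groups did not overlap, which in this direction was so for 13.6% of all genes. Cdkn1a, which encodes p21, fell by 1.53 ± 0.348, with 12.3 to 58.7 FPKM in RPM and 96.3, 74.2 and 37.7 FPKM in RPR2 (adjusted p = 0.00281, same test). Cdkn1b, which encodes p27, fell by 0.86 ± 0.236, with 25.5 to 65.4 FPKM in RPM and 78.7, 89.0 and 62.0 FPKM in RPR2 (adjusted p = 0.00913, same test). Without RPR2 replicate 3, 4 of the 7 fell and none rose, with 44.8% of all genes called and 28.5% lower in that fit.

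Of the 13 pocket protein and E2F genes tested, 3 rose and 1 fell, with a median of -0.01, where 41.2% of all genes were called (18.4% higher, 22.8% lower). TPM scaling left 0 higher and 1 lower, and array weights gave 3 higher and 7 lower. For all genes tested, TPM scaling gave 1900 higher and 3839 lower of 16715, and array weights 4290 and 6577 of 15719. Rbl1, which encodes p107, fell by 1.24 ± 0.229, with 2.88 to 8.34 FPKM in RPM and 17.3, 15.7 and 11.02 FPKM in RPR2 (limma, Benjamini-Hochberg adjusted p = 0.000578). E2f3 rose by 1.04 ± 0.229, with 6.65 to 17.5 FPKM in RPM and 6.38, 5.74 and 5.25 FPKM in RPR2, and Tfdp1, the gene of the E2F partner DP1, rose by 1.04 ± 0.252, with 154 to 265 FPKM in RPM and 150, 112 and 51.3 FPKM in RPR2 (adjusted p = 0.00224 and 0.00413, same test). The difference of Tfdp1 was 0.60 when RPR2 replicate 3 was left out (adjusted p = 0.0278, same test). Without RPR2 replicate 3 the count was 2 higher and 7 lower, with a median of -0.75. In that fit 44.8% of all genes were called, 16.2% higher and 28.5% lower, with a median of -0.22. Rb1 itself was then called lower at 5.19 to 22.6 FPKM in RPM, against 39.4 and 49.8 FPKM in RPR2 replicates 1 and 2 (adjusted p = 0.00102, same test). In RPR2 replicate 3 Rb1 was at 3.58 FPKM.

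Of the 8 genes that activate or restrain the kinases, 3 rose and none fell (median 0.29), against 41.2% of all genes called and 18.4% higher. Cdc25a, a phosphatase that activates CDK2, was 17.8 to 31.7 FPKM in RPM and 16.1, 15.5 and 7.45 FPKM in RPR2 (difference 0.92 ± 0.206, SE; limma, Benjamini-Hochberg adjusted p = 0.00238), and Mnat1 and Cdc25c rose by 0.50 and 0.63. With RPR2 replicate 3 left out, Cdc25a and Cdk7 rose and Cdc25b and Pkmyt1 fell (all but Cdc25a named after their values were seen). In that fit 16.2% of all genes were higher and 28.5% lower. The difference of Cdc25a was then 0.59, and Mnat1 and Cdc25c lost their calls, with differences of 0.28 and 0.17 (limma, Benjamini-Hochberg adjusted p = 0.162 and 0.386). TPM scaling called 0 of the 8 genes and array weights 7. These settings called 5739 of 16715 and 10867 of 15719 genes tested. Of the 14 genes of cyclin turnover and kinase folding, 6 rose and 1 fell (median 0.66), against 18.4% of all genes higher and 22.8% lower. Hsp90ab1, a chaperone that helps fold CDK4, was 1023 to 1541 FPKM in RPM and 626, 590 and 612 FPKM in RPR2 (difference 1.15 ± 0.170, SE; adjusted p = 9.55e-05, same test). Cks1b, a partner of CDKs in the breakdown of p27, was 102 to 219 FPKM in RPM and 44.6, 34.1 and 73.2 FPKM in RPR2, and Fbxo4, the one that fell, 2.22 to 4.91 FPKM in RPM and 7.97, 10.6 and 12.5 FPKM in RPR2. With RPR2 replicate 3 left out, 7 rose and 2 fell, against 16.2% of all genes higher and 28.5% lower.

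Of the 6 cyclins and kinases of S phase and mitosis tested, 5 rose and none fell (median 0.85), against 18.4% of all genes higher. TPM scaling left 2 higher, and for all genes tested it called 1900 of 16715 higher. Cdk1, the mitotic kinase, was 158 to 225 FPKM in RPM and 130, 106 and 68.0 FPKM in RPR2 (difference 0.99 ± 0.168, SE; limma, Benjamini-Hochberg adjusted p = 0.000299). Ccna2 and Ccnb1, which encode cyclins A2 and B1, rose by 1.27 and 1.40, and by 0.63 and 0.70 when RPR2 replicate 3 was left out. With that tumour left out, where 16.2% of all genes were higher, 3 rose and none fell, with a median of 0.41. The proliferation markers, summed to 515 to 683 FPKM in RPM and 390, 327 and 135 FPKM in RPR2, moved with these counts, and their part in the result was not tested.

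**Figure D5:**
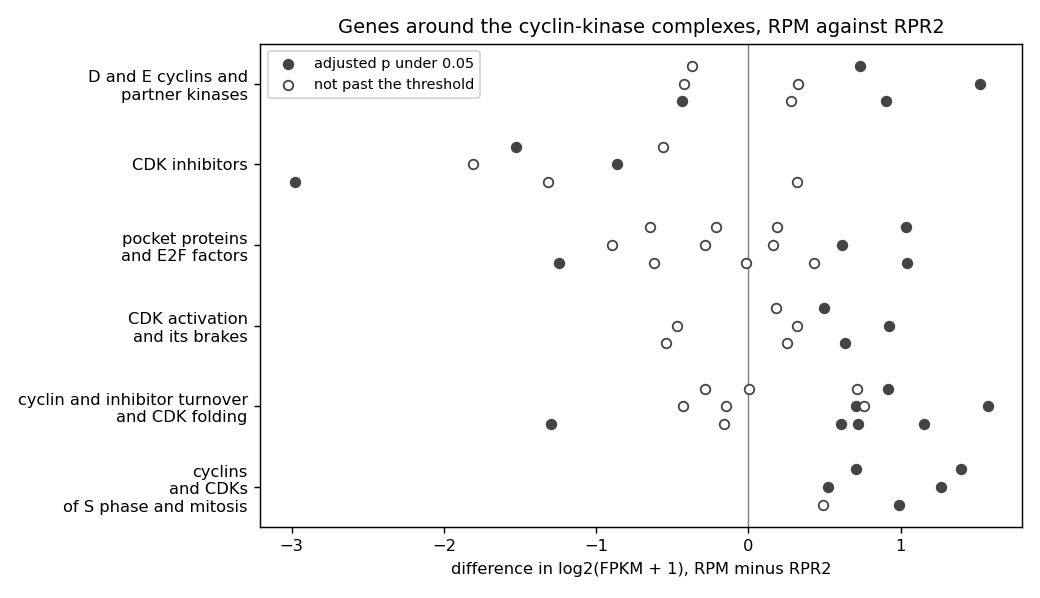
Difference in log2(FPKM + 1) between RPM and RPR2 for the 8 genes (top row) and for the genes of each list, 1 point per gene. Filled points have an adjusted p under 0.05: 3 of the 7 CDK inhibitors are filled on the negative side and 5 of the 6 cyclins and kinases of S phase and mitosis on the positive side.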

How the data were processed

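Groups follow the genotype labels, and Myc allele numbers the source names. The authors' deposited values are FPKM, 1 value per gene and library. For tools, the submitters' processing notes list Bowtie 1.0.1, RSEM 1.2.12 and mm10 without saying how each was used, and the strand setting is not stated. Symbols were found for 46005 of 46517 Ensembl identifiers, coordinates are from GENCODE M21 (GRCm38) and sequences from RefSeq. The genes, lists and markers were chosen with earlier results of these data known.

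Read counts were not used here, and depth was estimated at an assumed read length of 50 bases. Genes with at least 1 FPKM in at least 3 libraries were tested as log2(FPKM + 1) with limma 3.58.1 in R 4.3.3 (empirical Bayes with a trend), 15719 for RPM against RPR2 and 14862 for LSL/LSL against LSL/+. The fit was also run on simulated data with independent noise for each gene and library. These data held no shared title numbers and no outlying tumour, and their outcome is not used here. Alternatives changed the pseudocount (0.1 and 0.01), the filter (none, or a mean of at least 5 FPKM), the scaling (TPM, median-of-ratios, quantile) and the test (array weights, title number as a random effect, exact Wilcoxon over 364 splits), added pseudogenes to their parents, kept only LSL/LSL tumours, or left out 1 library. Shared sequence was found with blastn 2.17.0 (at least 90% identity over 200 bases). Named genes are the 8 members, Myc, Rb1, up to 3 called genes of each list with the smallest p, and the 3 closest profiles. Protein features were not analysed here.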

Additional observations from a re-analysis of the deposited data

Results flagged for a closer look

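Among the 9 LSL/LSL tumours, 8 genes were checked for a tumour that stands apart from the rest, and 2 did. Ccnd2 in RPM replicate 5 (19.8 FPKM) had a gap to the next tumour of 0.631 of the whole range on the log2(FPKM + 1) scale, and Cdk2 in the same tumour (34.8 FPKM) a gap of 0.623, both above Dixon's critical value of 0.493 for 9 samples. Chance flags about 1 in 20 groups. RPM replicate 5 also had the lowest summed neuroendocrine markers in RPM, and the part of this in either value was not tested.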

How the results depend on the processing

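Cdk6 was called higher in RPM in all 25 alternatives that tested it (a mean of at least 5 FPKM left out Cdk6 and Ccnd2), with differences of 1.40 to 2.29. Cdk4 was called in 25 of 26, with differences of 0.51 to 1.30, and was not past the threshold by the exact Wilcoxon test (0.90, Benjamini-Hochberg adjusted p = 0.0615). Ccne1 was called in 14 of 26 and Cdk2 in 10 of 26. Ccne1 lost its call with no filter (0.73), TPM scaling (0.55), array weights (0.22), the exact Wilcoxon test (0.73), the title number as a random effect (0.74) and only LSL/LSL tumours (0.70). Cdk2 lost it with median-of-ratios scaling (-0.32), quantile normalization (-0.35), the exact Wilcoxon test (-0.44), the random effect (-0.41) and only LSL/LSL tumours (-0.42). Leaving out 1 library at a time gave 0.21 to 1.03 for Ccne1, -0.54 to -0.36 for Cdk2 and -0.92 to 1.02 for Ccne2. Ccne2 reversed to -0.92 without RPR2 replicate 3 and to -0.72 with array weights. Differences that passed the threshold in neither fit changed sign too: Ccnd1 to 0.26 and Ccnd3 to 0.015 without RPR2 replicate 3, and Ccnd1 to 0.35 with array weights (over all single libraries left out, Ccnd1 ranged from -0.72 to 0.26 and Ccnd3 from -0.73 to 0.015). Between LSL/LSL and LSL/+, TPM scaling turned Ccne1 to 0.070 and Ccne2 to 0.17, median-of-ratios scaling Cdk2 to -0.11 and Cdk4 to -0.072, and array weights Ccne2 to 0.012. Leaving out LSL/+ replicate 2 turned Ccnd2 to -0.21 and Ccne1 to 0.041, and leaving out LSL/+ replicate 4 turned Ccne2 to 0.30, Cdk2 to -0.046 and Cdk4 to -0.24. Over single RPM libraries left out, the differences ran from 0.74 to 2.45 for Ccnd1, -0.21 to 1.18 for Ccnd2, -0.41 to 0.041 for Ccne1, -0.47 to 0.30 for Ccne2, -0.046 to 0.21 for Cdk2 and -0.24 to 0.50 for Cdk4. Ccnd1, Ccnd2 and Ccnd3 were called in none of their 26, 25 and 26 alternatives, and none of the 8 genes in any alternative for the allele number.

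The count of genes called for RPM against RPR2 was 6483 and moved by over 1.5 times only with array weights (10867). It was 7036 without RPR2 replicate 3. TPM scaling moved the median of all genes from -0.06 to -0.24, with 1900 higher and 3839 lower against 2897 and 3586, and quantile normalization gave 3657 and 3066. For LSL/LSL against LSL/+ the count of 1 became 5 and 10 with pseudocounts of 0.1 and 0.01, 30 with no filter, and 0 with TPM scaling, quantile normalization or array weights, and 0 to 8 when 1 library was left out. Pocket protein and E2F genes called numbered 1 with TPM scaling, 10 with array weights and 9 without RPR2 replicate 3, against 4. Kinase activation genes numbered 0 with TPM scaling, 5 with quantile normalization and 7 with array weights, against 3, and cyclins and kinases of S phase and mitosis 2 with TPM scaling and 3 without RPR2 replicate 3, against 5. The cause of these changes was not tested. No paired analysis was possible because the labels give no replicate numbers that the models share. Depth is known only as an estimate.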
